A study of Homo sapiens with 20 samples.

Results

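The sites where the RNA-binding protein hnRNPA1 contacts RNA were compared between cells with their own hnRNPA1 and cells that also made extra hnRNPA1. The comparison rests on 4 iCLIP libraries of hnRNPA1, 2 from control cells and 2 from overexpressing cells, out of 20 samples in the series. The protocols in the labels name the cells as HEK293T TREX-FLP and the RNA-seq titles as HEK293 TREX FLP-In; both are established human embryonic kidney lines, and the difference in name was not resolved. Control cells carried no hnRNPA1 transgene, and the labels give blasticidin and zeocin for their selection. The overexpressing cells carried a tetracycline-inducible T7-tagged hnRNPA1 gene, with hygromycin named for their selection. Both kinds of cells were selected for 3 days before use and kept under tetracycline for 24 h before harvest, and nuclear extracts went into the immunoprecipitation. The labels do not say whether the inducible cells were 1 clone or whether replicates came from separate cultures, so p-values measure the spread between these libraries, which may be technical. Selection drugs and the transgene changed together and cannot be told apart. Genes were taken as members where they held a peak in all 4 libraries, which left 5738 of 14214 genes with a peak in any of them.

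HnRNPA1 is an abundant nuclear protein with a pair of RNA recognition motifs that prefer UAG-containing RNA. It represses splice sites, moves between nucleus and cytoplasm, and acts on RNA processing from splicing to microRNA maturation. One well-known contact is the primary transcript of the miR-17-92 cluster, in which hnRNPA1 binds the loop of the miR-18a hairpin. iCLIP crosslinks protein to RNA with ultraviolet light, so that the reads mark where the protein touched RNA, and a peak is a stretch where those reads pile up. The signal of a gene here is the number of reads in its peaks, divided by a factor that sets the libraries to a common scale (normalised reads). The number of contacts per RNA molecule and the amount of the RNA both enter this signal and were not separated.

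Sequences are shown for the RNAs to which the results below return, with the searched motif in capitals. The miR-18a hairpin is drawn from RefSeq (chromosome 13, GRCh38.p14) because its host gene MIR17HG lost signal, and UAG is in capitals.
MIR18A hairpin: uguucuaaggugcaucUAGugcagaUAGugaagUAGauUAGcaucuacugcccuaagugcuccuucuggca
It holds 4 UAG triplets on the transcript strand, a count reached by 2.56% of the 1562 human hairpins in the table, and 56.0% of them hold at least 1. For the 3 nuclear RNAs of highest signal among those described below, a 60-base window with the most TAGG (transcript strand only, GENCODE release 29 transcripts) is given, with TAGG in capitals.
NEAT1, bases 131 to 190: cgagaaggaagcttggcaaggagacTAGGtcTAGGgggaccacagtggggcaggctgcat
MALAT1, bases 1998 to 2057: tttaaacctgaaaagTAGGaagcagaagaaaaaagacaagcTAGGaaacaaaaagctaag
XIST, bases 918 to 977: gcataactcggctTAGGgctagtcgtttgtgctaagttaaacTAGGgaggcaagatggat
Each of these windows holds 2 TAGG motifs, a count reached by 0.95% of 157126 windows of that length in long intergenic non-coding RNAs. The windows shown were picked as the highest of long transcripts, so this share does not make these RNAs unusual. Over whole transcripts the motif came 2.07 times per 1000 bases in NEAT1, 3.22 in MALAT1 and 2.34 in XIST, against a median of 2.33 over 2805 such RNAs of at least 1000 bases. The motif counts describe letters in the transcripts. The deposited peaks are in hg19 and were not placed on these sequences.

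The libraries differed in depth between conditions, and this bears on every value below. Control replicates 1 and 2 held 2973275 and 2508821 reads in 133399 and 123333 peaks, and overexpression replicates 1 and 2 held 549365 and 575471 reads in 43169 and 44335 peaks. The overexpression libraries had 0.205 times the reads in peaks of the control libraries (exact two-sided permutation p = 0.33, the smallest that 2 against 2 allows). No listed peak had under 6 reads in any of the libraries, a minimum that a weak site reaches more easily in a deep library. A second value, with a depth-matched minimum, is therefore given beside each main one. Peaks then needed at least 37 and 32 reads in the control libraries and 6 and 7 in the overexpression libraries. Rounded up to whole reads, this is about the same height on the scale of the deposited peaks. The step from 6 to 7 left 33285 of the 44335 peaks of overexpression replicate 2, while replicate 1 kept all 43169. Log2 changes are relative to the median tested gene of each setting, and these medians do not mean the same: the ratio of the scaling factors, overexpression to control, was 0.183 with deposited peaks, 0.352 with the depth-matched minimum and 0.338 in sites that had a peak in all 4 libraries. A log2 change on the scale of the deposited peaks is thus 0.94 higher for strongly covered genes with the depth-matched minimum, and 0.88 higher in shared sites, than the value printed for them. Which scale is closer to equal RNA input was not tested. Genes coding for proteins took 84.0% and 84.1% of the reads in control and 80.7% and 80.0% with overexpression. Long intergenic non-coding RNAs took 7.16% and 7.07% in control and 11.9% and 12.1% with overexpression. The 10 genes with the most reads in a library held 11.3% and 10.8% of its reads in control and 20.7% and 20.3% with overexpression. Of 8 genes listed as marks of the kidney line, VIM and 3 others had a peak in some library and 2 had one in all 4. Their summed signal was 353 and 392 normalised reads in control and 720.5 and 533 with overexpression. Of 17 genes listed for blood, liver, muscle and endothelium, LYZ alone had a peak, at 48.5 and 44.7 normalised reads in control and 0 and 17.8 with overexpression.

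Between conditions, 545 genes rose and 478 fell among the 5738 tested (limma, Benjamini-Hochberg adjusted p under 0.05). Calls covered 17.8% of genes, 9.5% higher and 8.33% lower. On simulated peaks with these depths and this peak minimum, the same fit also called genes that had not been changed. Some of the calls with deposited peaks may therefore be false. The 478 falls had a median log2 change of -1.84 without control replicate 1 and -1.83 without control replicate 2. Without overexpression replicates 1 and 2 it was -1.70 and -1.81. How many falls were called varied widely with the library left out. With 1 library in a condition the spread comes from the other condition alone. In 1874 genes (32.7%) both overexpression libraries lay above both control libraries, and in 1892 (33.0%) both lay below. With the depth-matched minimum 2936 genes could be tested, and 557 were higher and 499 lower. Genes called in the same direction with both minimums numbered 238 higher and 240 lower (16.3% of the genes testable with both, 8.11% and 8.17%), and these are the ones described first. Put on the scale of the deposited peaks, a setting added after the values were seen, the depth-matched reads gave 1326 rises and 132 falls, and all 238 of the rises but 111 of the 240 falls were called again. Of the falls named below, those of RUNX1, SIM2, WDR4, PAXBP1, POC1B, KRBOX1, IRAK4, FBXL18, ANKUB1, MIR17HG and CPSF6 were among those 111. The 238 were mostly genes of strong signal, with a median of 399.7 normalised reads and a median absolute log2 change of 1.13. The 240 had a median of 90.4 normalised reads and a median absolute log2 change of 1.81, and typically went from 11.5 peaks in control to 1.5 with overexpression. Genes were also ranked by mean signal over all 4 libraries and cut into 10 equal bins. That mean includes the overexpression values being compared, and so do the medians of normalised reads of the 238 and the 240. The median log2 change was -0.42 in bin 3, 0.30 in bin 9 and 0.31 in bin 10, the highest, but 0.35 in bin 1. A tested gene needed at least 6 reads in every library, and the scaling factors were 2.56 and 2.21 in control and 0.423 and 0.449 with overexpression. Its lowest possible normalised value is thus higher with overexpression. Bin 1 therefore leaves little room for falls, and its rises are no separate result. Depth differs with condition in all 4 libraries, so the part of depth in the pattern over the bins was not tested.

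**Figure D1:**
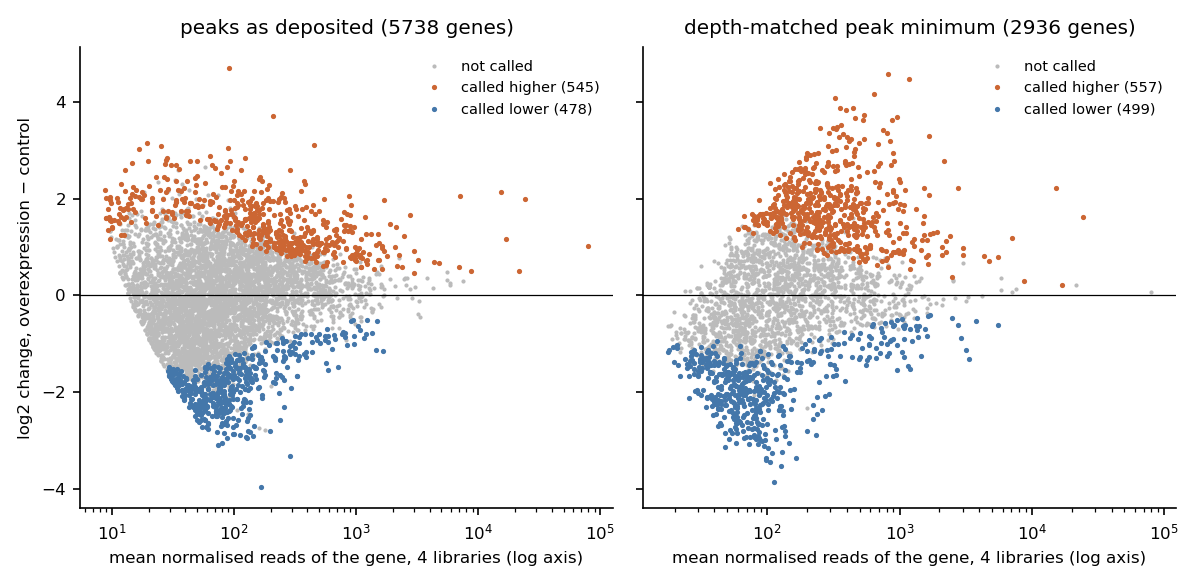
Log2 change (overexpression minus control) against the mean normalised reads of each gene on a log axis, with peaks as deposited on the left (5738 genes) and with the depth-matched minimum on the right (2936 genes); each point is a gene and colours mark the limma calls. On both sides the calls at low signal are mostly falls and those at high signal are mostly rises, except at the lowest signal on the left, where 65 genes were called higher and none lower.

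XIST, the non-coding RNA that coats the inactive X chromosome, held more hnRNPA1 signal than any other gene, at 54615 and 51195 in control and 106771 and 106954 with overexpression. It rose in the deposited peaks (log2 change 1.02 ± 0.05, adjusted p = 4.0e-04), and both overexpression libraries were above both controls. With the depth-matched minimum the change was 0.07 (adjusted p = 0.46), and on the scale of the deposited peaks 1.02 (adjusted p = 1.2e-04), so the call rests on the scale chosen. MALAT1, an abundant RNA of nuclear speckles, stood at 10084 and 10874 in control and 24760 and 22092 with overexpression (log2 change 1.16 ± 0.08, adjusted p = 0.0016). Its change shrank to 0.22 (adjusted p = 0.029) with the depth-matched minimum and stayed past the threshold, and was 1.16 on the scale of the deposited peaks. NEAT1, the RNA scaffold of paraspeckles, stood at 2810 and 2730 in control and 10935 and 11917 with overexpression (log2 change 2.04 ± 0.09, adjusted p = 2.3e-04). Here the rise held with the depth-matched minimum at 1.18 (adjusted p = 9.5e-04). It also held in the reads of sites that had a peak in all 4 libraries, at 1.24. The strongest of the 27 such NEAT1 sites, chr11:65192477-65192690 on the + strand (hg19), had 431 and 441 in control and 1122 and 1286 with overexpression. Along the transcript, cut into 10 equal bins of the peak span from the 5' end, the first bin differed least, with a mean of 698 normalised reads in control and 888 with overexpression, a ratio of 1.27. In the second bin, where the signal peaked, the means were 1123 and 4123, a ratio of 3.67. Ratios in the other bins lay between 3.51 and 39.5, so the RNA gained signal over most of its length.

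JPX, a non-coding RNA encoded beside XIST that promotes XIST expression, stood at 77.4 and 84.5 in control and 548 and 439 with overexpression (log2 change 2.59 ± 0.25, adjusted p = 0.0048). It had 1 peak in each control library and 6 in each overexpression library. The peak that all 4 libraries shared, chrX:73208801-73208834, did not share the rise, with 77.4 and 84.5 in control and 104 and 66.9 with overexpression (log2 change in shared sites, on their own scale, -0.83). FTX, another non-coding RNA of that region, moved the other way. Its signal was 1290 and 1240 in control and 841 and 791 with overexpression (log2 change -0.63 ± 0.14, adjusted p = 0.028; -1.17 (adjusted p = 0.0026) with the depth-matched minimum; -0.23 on the scale of the deposited peaks, not called). MIR17HG, the host transcript of miR-17-92, fell as well. It held 558 and 544 in control and 206 and 252 with overexpression (log2 change -1.27 ± 0.21, adjusted p = 0.015), with no overlap between conditions, and -1.76 (adjusted p = 0.003) with the depth-matched minimum. MIR17HG had 33 and 31 in control and 5 and 5 with overexpression, counted in peaks. Its strongest shared site, chr13:92002097-92002384, had 69.2 and 63.2 in control and 49.6 and 60.2 with overexpression, so that single site differed little while 15 sites were found in both control libraries and in neither overexpression library. Of the 7 nuclear non-coding RNAs tested from a list of 10, which does not hold XIST, 3 rose and 2 fell with either minimum (background 9.5% and 8.33% with deposited peaks, 19.0% and 17.0% with the depth-matched minimum), with a median log2 change of 0.60 over the list against 0.01 over all tested genes.

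SLIT2, which codes for a secreted axon guidance ligand of the ROBO receptors, was second in mean signal over the 4 libraries, though in control it lay below ERBB4 and MALAT1. It held 9811 and 9551 in control and 37949 and 39125 with overexpression (log2 change 1.99 ± 0.06, adjusted p = 4.7e-05; 1.61 (adjusted p = 1.1e-04) with the depth-matched minimum). Its signal lay in bins 1 to 5 of the peak span, and there the ratio of overexpression to control was between 3.64 and 4.37. The 259 SLIT2 sites shared by all libraries rose as well (1.31), and its strongest one, chr4:20271739-20271965 on the + strand, had 97.4 and 114 in control and 416 and 459 with overexpression. LRP1B, a very large gene for a lipoprotein receptor, held 6241 and 5115 in control and 27720 and 22203 with overexpression (log2 change 2.13 ± 0.13, adjusted p = 0.0013; 2.22 (adjusted p = 3.6e-04) with the depth-matched minimum). In LRP1B the ratio grew along the gene, from 3.18 in the first bin to 7.25 in the third and 25.7 in the fifth, after which little signal was left in either condition. ERBB4, a receptor tyrosine kinase for neuregulins, held 18742 and 16703 in control and 25443 and 24994 with overexpression (log2 change 0.51 ± 0.08, adjusted p = 0.015), and its change with the depth-matched minimum was 0.21 (adjusted p = 0.052). ERC1, a scaffold protein of the active zone, likewise rose with deposited peaks alone (log2 change 0.59 ± 0.08, adjusted p = 0.012; 0.07 (adjusted p = 0.58)). EFNA5, a membrane-bound ephrin ligand, rose under both minimums (log2 change 0.51 ± 0.13, adjusted p = 0.039; 0.31 (adjusted p = 0.044)). NFIA, a transcription factor, and ROBO1, a receptor of SLIT ligands, completed the 10 genes of highest mean signal and were not called, with log2 changes of 0.30 (adjusted p = 0.11) and 0.26 (adjusted p = 0.15). Of the 10 genes of highest signal, 8 rose with the deposited peaks and 5 of these also with the depth-matched minimum on its own scale. Ranking by the mean of all 4 libraries favours genes that are high with overexpression, so this count is no separate result. Among the 574 genes in the highest of the 10 signal bins 162 were called higher, against 9.5% of all tested genes. These bins rank genes by the same mean, so this count is no separate result either.

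**Figure D2:**
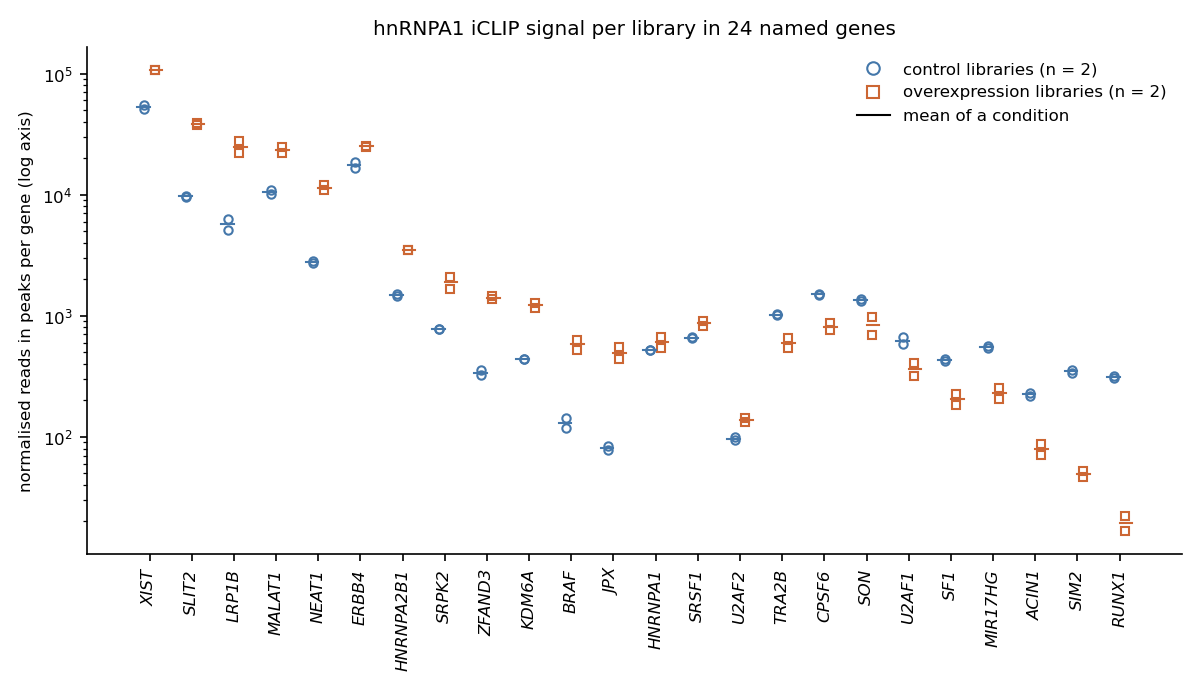
Normalised reads in peaks per gene in each library on a log axis; circles are the 2 control libraries, squares the 2 overexpression libraries, and short lines the mean of a condition. Within each gene the libraries of a condition lie close together compared with the distance between conditions for genes such as SLIT2 and RUNX1.

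**Figure D3:**
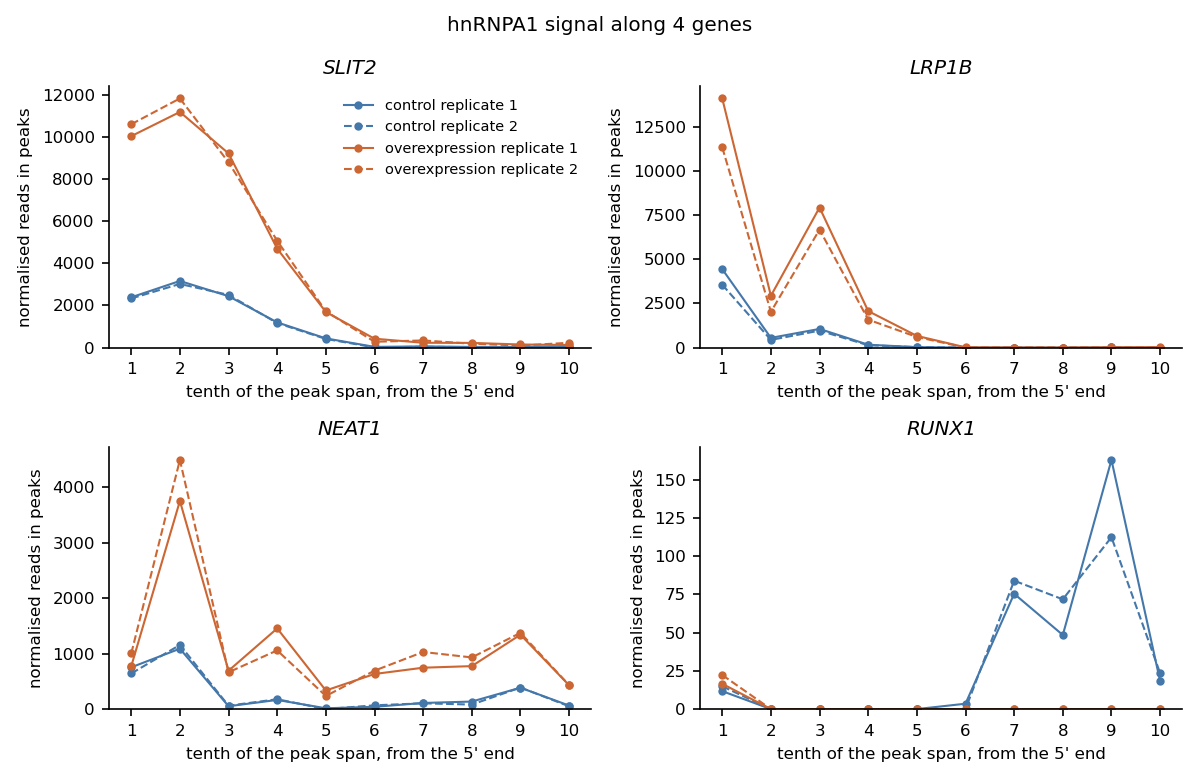
Normalised reads in peaks in each of 10 equal bins of the peak span, from the 5' end, for 4 genes; each line is 1 library. SLIT2 keeps its shape at a higher level with overexpression, NEAT1 differs least in its first bin, and RUNX1 has no peak beyond its first bin in the overexpression libraries.

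The 8 largest rises among genes called with both minimums included JPX and LRP1B. ZIC5, a zinc finger transcription factor with the largest of them, held 51.6 and 18.5 in control and 170.1 and 218 with overexpression (log2 change 2.60 ± 0.52, adjusted p = 0.024). BRAF, a kinase of the MAP kinase pathway, held 142 and 117 in control and 633 and 526 with overexpression (log2 change 2.15 ± 0.23, adjusted p = 0.0076). Its 2 shared sites changed by 0.33 (adjusted p = 0.38) on their own scale, which lies 0.88 below that of the deposited peaks. The strongest of them held 12.9 and 12.2 in control and 26.0 and 35.7 with overexpression. These sites thus rose on the scale of the deposited peaks, but the added reads lay mainly outside them. ZFAND3, a zinc finger protein gene, showed the same combination. It held 322 and 353 in control and 1446 and 1371 with overexpression (log2 change 2.06 ± 0.16, adjusted p = 0.0022). Its 4 shared sites changed by 0.26 (adjusted p = 0.34) on their own scale. The strongest of them held 34.0 and 42.0 in control and 75.6 and 71.3 with overexpression. ANKRD30BL (2.23), PAIP2, which binds poly(A)-binding protein (2.15), and the cargo receptor LMAN1 (2.08) completed the 8 largest rises.

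The largest fall was in RUNX1, a transcription factor of blood development, at 321 and 307 in control and 16.5 and 22.3 with overexpression (log2 change -3.96 ± 0.36, adjusted p = 0.0033; -3.36 (adjusted p = 0.0026) with the depth-matched minimum). RUNX1 had 58 and 52 peaks in control and 1 in each overexpression library. The remaining peak, chr21:36410872-36410945 on the - strand, held 11.7 and 14.9 in control and 16.5 and 22.3 with overexpression, and the peaks missing with overexpression lay in bins 6 to 10 of the span. SIM2, a developmental transcription factor also on chromosome 21, held 355 and 339 in control and 52.0 and 46.8 with overexpression (log2 change -2.79 ± 0.28, adjusted p = 0.0054). The centriole protein gene POC1B (-3.09), KRBOX1 (-2.93), the kinase gene IRAK4 of Toll-like receptor signalling (-2.88), FBXL18 (-2.86) and ANKUB1 (-2.82) were also among the 8 largest falls. POC1B, KRBOX1, IRAK4 and FBXL18 had no site with a peak in all 4 libraries.

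The RNAs of the 3 proteins studied did not pass the test. HNRNPA1 held 522 and 525 in control and 541 and 673 with overexpression (log2 change 0.20 ± 0.18, adjusted p = 0.45), and the sign turned with the depth-matched minimum, at -0.56 (adjusted p = 0.077), but not on the scale of the deposited peaks, at 0.38 (adjusted p = 0.17). In sites shared by all 4 libraries HNRNPA1 was lower on their own scale, at -0.49 (adjusted p = 0.011). That scale lies 0.88 below the scale of the deposited peaks, so this sign too depends on the scale. SRSF1, the gene of an SR protein, held 669 and 649 in control and 912 and 818 with overexpression (log2 change 0.39 ± 0.15, adjusted p = 0.11; -0.38 (adjusted p = 0.11)). U2AF2, which codes for the large subunit of the factor that recognises 3' splice sites, held 98.9 and 94.0 in control and 144 and 131 with overexpression (log2 change 0.51 ± 0.29, adjusted p = 0.25; 0.02 (adjusted p = 0.97)). These values are contacts on the RNAs. In the overexpressing cells, any reads from the RNA of the hnRNPA1 transgene were not separated from those of HNRNPA1 itself. The level of hnRNPA1 itself was not measured in the files used here.

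Splicing regulators were read as lists of genes. Of 22 hnRNP genes tested, 3 rose and none fell (background 9.5% and 8.33%), with a median log2 change of 0.12. HNRNPA2B1, a close relative of HNRNPA1, held 1504 and 1465 in control and 3468 and 3479 with overexpression (log2 change 1.23 ± 0.11, adjusted p = 0.0033; 0.38 (adjusted p = 0.044)). HNRNPUL2 rose with both minimums (1.25; 1.70 (adjusted p = 0.024)), but HNRNPH1 with deposited peaks alone (0.74; -0.12 (adjusted p = 0.39)). With the depth-matched minimum 2 hnRNP genes were higher and 6 lower of 20, against a background of 19.0% and 17.0%, so the balance of the list turned; that setting changes the peak minimum and the scale together. Of 12 SR protein genes 1 was called, TRA2B, which activates exons through exonic enhancers, at 1025 and 1013 in control and 659 and 539 with overexpression (log2 change -0.77 ± 0.16, adjusted p = 0.027; -1.24 (adjusted p = 0.0029)). On the scale of the deposited peaks the second value was -0.30 (adjusted p = 0.24), so the fall depends on the scale. Under the depth-matched minimum 3 SR protein genes of 12 were lower and none higher (background 17.0% and 19.0%).

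Among 19 genes for SR kinases and SR-related cofactors, 6 rose and 2 fell (background 9.5% and 8.33%). Of these, 3 rises and both falls held with the depth-matched minimum, where 3 of 18 were higher and 3 lower (background 19.0% and 17.0%). SRPK2, a kinase of SR proteins, held 778 and 784 in control and 1672 and 2091 with overexpression (log2 change 1.26 ± 0.15, adjusted p = 0.011; 1.79 (adjusted p = 0.0017)). CLK1, another SR protein kinase, rose by 1.67 (1.92 with the depth-matched minimum), and LUC7L, related to a U1 snRNP protein, by 1.02 (0.99). SON, a nuclear speckle protein needed for splicing of weak introns, held 1317 and 1368 in control and 971 and 693 with overexpression (log2 change -0.71 ± 0.19, adjusted p = 0.042; -1.27 (adjusted p = 0.0026)). ACIN1, an SR-related protein that joins the exon junction complex, held 219 and 230.4 in control and 70.9 and 86.9 with overexpression (log2 change -1.50 ± 0.29, adjusted p = 0.021; -1.38 (adjusted p = 0.039)). On the scale of the deposited peaks the depth-matched values were -0.33 (adjusted p = 0.22) for SON and -0.45 (adjusted p = 0.43) for ACIN1, and neither was called. PNISR, LUC7L2 and PNN were called with the deposited peaks only; their values with the depth-matched minimum were -0.01, 0.39 and 0.44.

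Of 12 genes for 3' splice site and U2 factors, 3 rose and 2 fell (background 9.5% and 8.33%). U2AF1, the small subunit of the U2AF heterodimer that reads the AG at the 3' splice site, held 663 and 585 in control and 317 and 408 with overexpression (log2 change -0.79 ± 0.20, adjusted p = 0.04; -1.32 (adjusted p = 0.0063)). SF1, which binds the branch point, held 441 and 423 in control and 227 and 183 with overexpression (log2 change -1.08 ± 0.22, adjusted p = 0.024; -1.43 (adjusted p = 0.0061)). These depth-matched falls too were not called on the scale of the deposited peaks, at -0.38 (adjusted p = 0.2) for U2AF1 and -0.49 (adjusted p = 0.18) for SF1. SF3B1, a core subunit of U2 snRNP, was higher with the deposited peaks (1.21) and at 0.84 (adjusted p = 0.083) with the depth-matched minimum. CPSF6, a subunit of the cleavage factor that selects polyadenylation sites, fell from a strong signal. It held 1518 and 1478 in control and 865 and 760.0 with overexpression (log2 change -0.89 ± 0.14, adjusted p = 0.015; -1.46 (adjusted p = 0.001)), and 33 of its 78 sites were in both control libraries and neither overexpression library. DAZAP1, an hnRNP-related protein, rose (1.21; 1.15 (adjusted p = 0.018)). These were the called members among 11 genes for paraspeckle and FET proteins, 1 higher and 1 lower (background 9.5% and 8.33%).

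Other lists split in their direction. Of 48 cytoplasmic ribosomal protein genes tested, none rose and 4 fell, namely RPS9 (-1.15), RPL5 (-1.15), RPL27A (-2.43) and RPL37 (-0.97), each also with the depth-matched minimum but none of them on the scale of the deposited peaks (-1.28 to -0.26); their 4 of 48 is near the background of 8.33%. Ribosomal protein genes, like HNRNPA1, have processed pseudogenes with which reads may have been split. Of 48 chromatin regulators 11 rose and 1 fell (background 9.5% and 8.33%), and 6 rises held with the depth-matched minimum. KDM6A, a histone H3 lysine 27 demethylase, held 441 and 441 in control and 1268 and 1163 with overexpression. Its log2 change was 1.46 ± 0.15 (adjusted p = 0.0064), and 1.89 (adjusted p = 0.0013) with the depth-matched minimum. Its 6 shared sites changed by 0.06 (adjusted p = 0.8) on their own scale. The strongest of them held 51.2 and 54.7 in control and 99.2 and 93.6 with overexpression. The remodelling factors ATRX (1.52; 2.02 (adjusted p = 0.0029)) and CHD2 (1.04; 0.98 (adjusted p = 0.013)) and the Polycomb subunit SUZ12 (1.05; 2.27 (adjusted p = 0.0072)) rose with either minimum. With the depth-matched minimum 17 of 29 chromatin regulators were higher and none lower, against a background of 19.0% and 17.0%. Of 37 cell cycle genes 10 rose and 1 fell (background 9.5% and 8.33%), and with the depth-matched minimum 4 were higher and 1 lower of 20 (background 19.0% and 17.0%). Of the deposited calls, the proliferation antigen gene MKI67 (1.44), the condensin gene NCAPG (1.32) and the cyclin gene CCND2, which fell (-2.20), were the ones called with both. CDK1 (0.98; 0.62 (adjusted p = 0.1)) and CENPF (1.16; 1.54 (adjusted p = 0.099)) were called with deposited peaks only.

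For every list in this paragraph the background was 9.5% higher and 8.33% lower with deposited peaks. With the depth-matched minimum it was 19.0% and 17.0%. Of 39 nuclear transport genes 7 rose and 1 fell with deposited peaks, among them KPNA4 (1.11), TPR (0.96), XPO5 (1.93) and NUP85 (1.85). None of these 8 was called with the depth-matched minimum, where 6 could not be tested. Over the 24 nuclear transport genes testable there, 5 others were higher and none lower (background 19.0% and 17.0%). Of 34 translation factors 3 rose and 1 fell; EIF3K (1.60) and EIF3E (-0.80), both subunits of initiation factor eIF3, moved in opposite directions with both minimums, but on the scale of the deposited peaks EIF3E stood at 0.07 (adjusted p = 0.77). Among 19 RNA helicases DDX3X alone was called (log2 change -0.50 ± 0.14, adjusted p = 0.048; -1.03 (adjusted p = 0.004); -0.09 on the scale of the deposited peaks), and among 12 snoRNA host genes ZFAS1 alone (log2 change 1.36 ± 0.18, adjusted p = 0.012; 0.62 (adjusted p = 0.054)). Of 11 helicases testable with the depth-matched minimum 4 were lower and none higher (background 17.0% and 19.0%). Of 18 genes reported as splicing or translation targets of hnRNPA1, 6 were testable and 1, the tropomyosin gene TPM1, was called (log2 change -1.93 ± 0.50, adjusted p = 0.04); it could not be tested with the depth-matched minimum, where 2 of 5 genes of this list were higher and none lower. Very long neuronal and adhesion genes gave 4 rises and 5 falls of 19, and 7 rises and 2 falls of 13 with the depth-matched minimum, so the balance turned. WWOX (0.60; 2.78 (adjusted p = 3.6e-04)) and LRP1B rose with both minimums, and the protocadherin gene PCDH9 fell with both (-0.96; -1.28). The fall of GPC6 (-1.15) was not found with the depth-matched minimum (-0.08 (adjusted p = 0.75)), and FHIT, singled out after its values were seen, was lower with deposited peaks (-0.999) and higher with the depth-matched minimum (1.79).

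**Figure D4:**
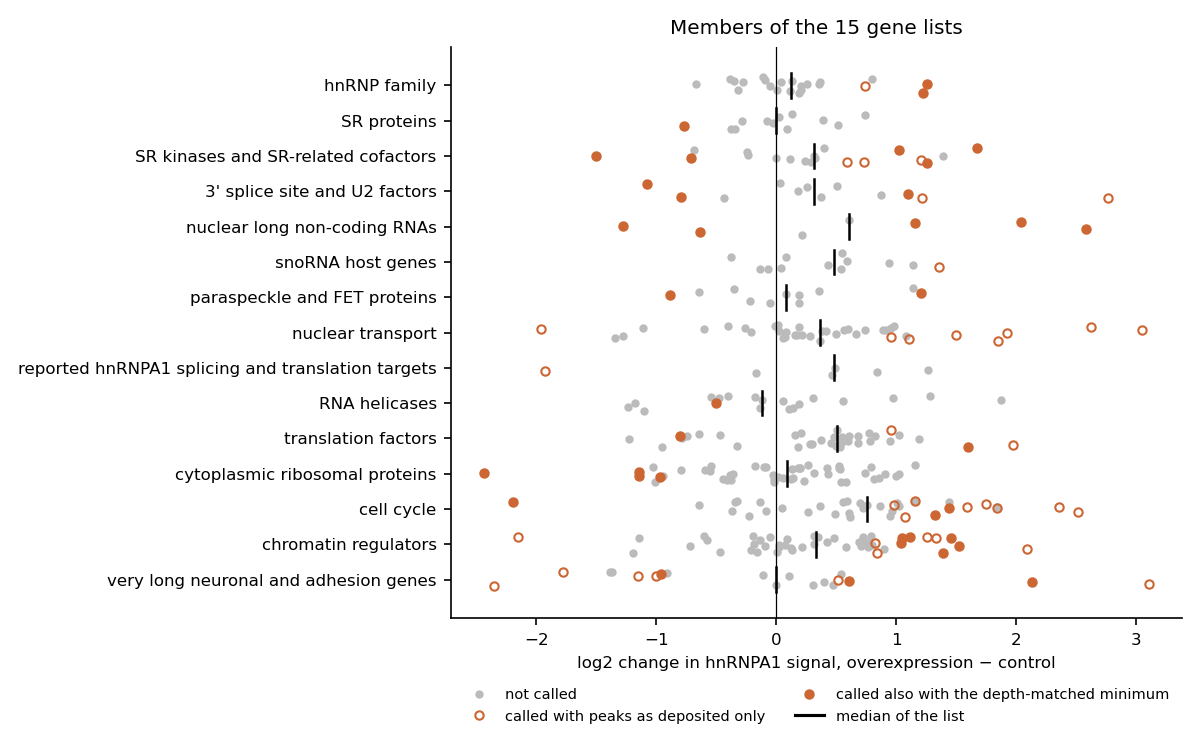
Log2 change in hnRNPA1 signal for the tested members of each of the 15 gene lists; grey points were not called, open points were called with the deposited peaks only, filled points also with the depth-matched minimum, and the black bar is the median of the list. Called members lie on both sides of 0 in 9 of the 15 lists.

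The direction of change differed between chromosomes, a split that was looked at after the values were seen. On chromosome 21, 25 of 75 tested genes fell and 1 rose, against 8.33% and 9.5% of all tested genes, and 62 of the 75 had a value below 0. Its median log2 change was -0.88 with deposited peaks and -0.99 with the depth-matched minimum, and 19 falls were called with both, or 6 with the depth-matched reads on the scale of the deposited peaks. Without control replicate 1 the falls numbered 15, and with peaks listed under several genes left out 22. The chromosome took 2.01% and 2.01% of the reads in control and 0.926% and 0.958% with overexpression. Besides RUNX1, SIM2, SON and U2AF1, the genes that fell included PAXBP1, at 1503 and 1558 in control and 888 and 863 with overexpression (log2 change -0.81 ± 0.13, adjusted p = 0.015). SCAF4, an SR-related gene for a protein that binds RNA polymerase II, held 531 and 519 in control and 274 and 187 with overexpression (log2 change -1.21 ± 0.24, adjusted p = 0.023). ITSN1 (-2.56), WDR4 (-2.52), TTC3 (-0.97) and UBE2G2 (-0.83) also fell; all were named after their values were seen. MRPS6 (-1.01) and SLC5A3 (-1.40) fell too, but parts of their peaks are listed under both genes and do not count as separate observations. The same holds for LSS and an unnamed gene ID that covers the same span, and for an overlapping non-coding gene beside SLC5A3. The libraries of the other proteins were lower on the same chromosome. In U2AF2 libraries 47 of 66 of these genes were lower and 6 higher (median -1.60, against -0.27 over all genes with hnRNPA1 signal). In SRSF1 libraries 4 of 29 were lower and none higher (median -0.78, against -0.03). U2AF2 was also low on chromosome 13, with 68 of 124 genes lower and 14 higher (median -1.33). There the hnRNPA1 median was 0.19 and the SRSF1 median 0.06.

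Chromosome 2 went the other way. Of 472 genes 101 rose and 15 fell, with a median log2 change of 0.63 (0.49 with the depth-matched minimum), and 45 rises were called with both. Its share of the reads was 6.94% and 6.82% in control and 10.5% and 9.76% with overexpression. After LRP1B, the genes of strongest signal called higher there with both minimums were ZNF638, at 1130 and 1069 in control and 2131 and 2224 with overexpression (log2 change 0.99 ± 0.12, adjusted p = 0.011), and PUM2, a Pumilio RNA-binding protein, at 784 and 626 in control and 1311 and 1219 with overexpression (log2 change 0.85 ± 0.16, adjusted p = 0.022). The transcription factor gene HOXD10 (1.31) and the RNA 3' end processing gene WDR33 (1.36) also rose; these genes too were named after their values were seen. On chromosome 18 the median was 0.43 over 116 genes. Medians of the other 20 chromosomes lay between -0.28 and 0.23. U2AF2 and SRSF1 medians on chromosome 2 were 0.16 and 0.37. The copy number of these chromosomes and the expression of their genes in the 2 cell lines were not tested.

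**Figure D5:**
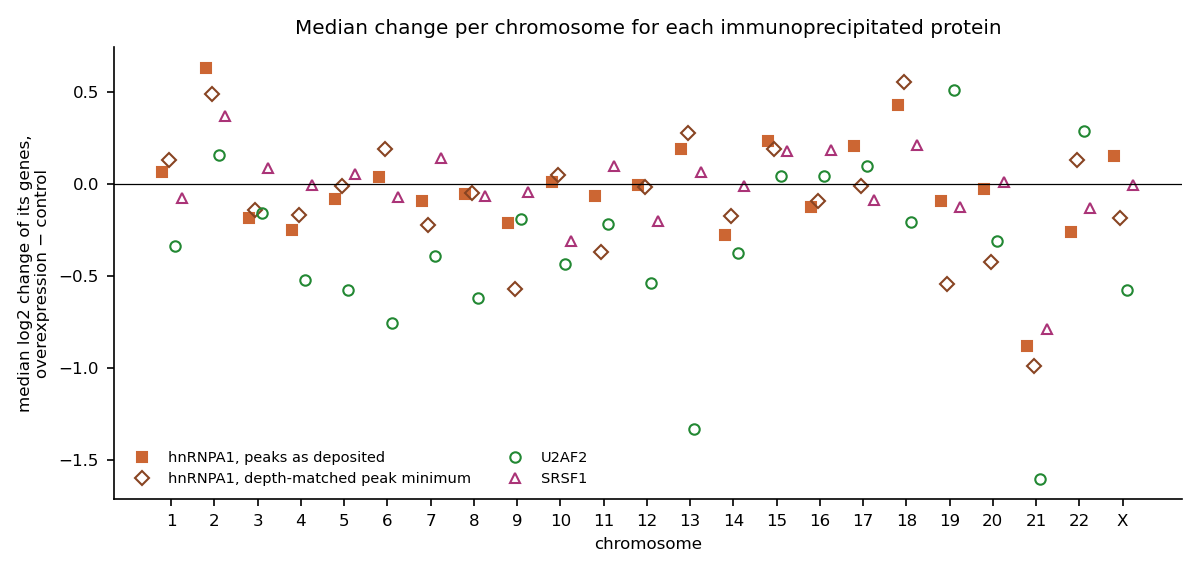
Median log2 change (overexpression minus control) of the genes on each chromosome, for hnRNPA1 with deposited peaks and with the depth-matched minimum, and for U2AF2 and SRSF1 over the same genes where they could be tested. Chromosome 21 lies lowest for hnRNPA1, U2AF2 and SRSF1, and chromosome 2 highest for hnRNPA1 with deposited peaks.

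U2AF2 and SRSF1 iCLIP was done in 3 libraries per condition from the same kinds of cells. The genes that rose for hnRNPA1 with both minimums had a median log2 change of -0.63 in U2AF2, where 25 of 217 were higher and 105 lower. The genes that fell had a median of 0.86, where 132 of 229 were higher and 59 lower. Over all genes with hnRNPA1 signal in every library the U2AF2 median was -0.27, and 21.0% were higher and 36.4% lower. Depth ran in opposite directions, with shallow overexpression libraries for hnRNPA1 and deep ones for U2AF2, so the part of depth in this contrast was not tested. NEAT1 (-3.15), SLIT2 (-2.10) and LRP1B (-1.36) were lower in U2AF2, and RUNX1 was higher (1.87). SIM2, SON, U2AF1 and MIR17HG, which fell for hnRNPA1, fell in U2AF2 as well (-3.40, -4.27, -2.02 and -4.26). The lists that hold the last 3 were mostly lower in U2AF2. Lower were 16 of 20 SR kinase and cofactor genes and 8 of 12 3' splice site and U2 factors, with none higher. Of 6 nuclear non-coding RNAs 5 were lower and 1 higher. Falls in U2AF2 were thus not limited to list members that fell for hnRNPA1. In SRSF1, of the rises 94 were testable, with 4 higher and 1 lower, and of the falls 167, with 3 higher and 7 lower, against 3.91% higher and 3.02% lower over all. LRP1B (5.62) and ERBB4 (2.03) rose in SRSF1, and U2AF1 (-2.38) and SF1 (-2.10) fell.

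Peaks found in 1 condition depend on depth. In the deposited files 3887 genes had peaks in both control libraries and in neither overexpression library, and 20 the reverse. With the depth-matched minimum these counts were 576 and 1592, so the direction turned. CEBPE, a myeloid transcription factor gene, had the strongest signal among the control-only genes, at 318 and 250.3 normalised reads in 13 and 10 peaks. ZNF273 had 148 and 143. SNORD58A, a small nucleolar RNA, led the genes listed with overexpression only, at 128 and 147 normalised reads. The merged site at its position, chr18:47017643-47017714, however held peaks of all 4 libraries, with 100.1 and 149.5 in control and 307 and 361 with overexpression, and the control peaks there are listed under another gene. A listed 0 therefore means that no peak is listed under that gene, which is not always an absence of peaks at its position. Of 209545 merged sites 9274 held a peak in all 4 libraries. Such sites made up 59.1% of the 15689 sites in both overexpression libraries and 16.9% of the 54723 in both control libraries. The 2 control libraries overlapped in 48.7% and 51.7% of their peaks and the 2 overexpression libraries in 39.6% and 38.7%, while 47.4% to 50.4% of the overexpression peaks overlapped a control library. With the depth-matched minimum the control libraries overlapped in 72.4% and 69.7%, the overexpression libraries in 35.4% and 45.9%, and 20.6% to 28.0% of the overexpression peaks overlapped a control library.

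Exon inclusion was set beside the signal through the authors' deposited table of 251 skipped exon events from RNA-seq of the same kinds of cells, 2 libraries per condition. Of these, 59 lay within the peak span of exactly 1 gene that was tested here, and 8 were in a called gene (13.6%, against 17.8% of all tested genes). In the authors' deposited table the SON exon had an inclusion of 0.58 and 0.23 in control and 0.03 and 0.06 with overexpression. The event span, chr21:34941277-34945761, held 662 and 658 normalised hnRNPA1 reads in control and 498 and 343 with overexpression. The ACIN1 exon went from 0.44 and 0.30 to 0.04 and 0.06 in the authors' deposited table. Its span, chr14:23535175-23538826, held 45.0 and 51.1 normalised reads in control and no peak with overexpression. UBXN4, whose gene signal rose (log2 change 1.31 ± 0.28, adjusted p = 0.028), had an inclusion of 0.82 in the control library with a value and 0.14 and 0.40 with overexpression in the authors' deposited table. PALLD, coding for an actin-bundling protein, fell with deposited peaks (log2 change -1.96 ± 0.36, adjusted p = 0.02) and not with the depth-matched minimum (0.51 (adjusted p = 0.34)), and the authors' deposited table has higher inclusion with overexpression in all 4 library pairs. SON, ACIN1 and UBXN4 were the genes in this group called with both minimums. In each, inclusion was lower with overexpression in all pairs with a value, while hnRNPA1 signal fell in SON and ACIN1 and rose in UBXN4. Lower inclusion in every pair was common in the authors' deposited table, at 120 of the 251 events, with 61 higher.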

How the data were processed

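The 4 hnRNPA1 iCLIP libraries, 2 per condition, were grouped by their titles. The authors aligned to hg19 with TopHat, removed repeats and ran CLIPper in pre-mRNA mode on every library separately, per the file headers. The submitters' processing notes name Bowtie2 and TopHat without versions, and how duplicate reads were treated is not given in the sources used here. The deposited p-value of each peak is CLIPper's, at most 0.050, and was not used further. Each peak name carries its gene and the number of reads, from which the count of reads per gene was summed. The authors' deposited exon table gives inclusion as a fraction per library, with a Bayes factor ratio and a score of the event per pair of libraries.

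Reads per gene were divided by median-of-ratios size factors and fitted as log2(value + 1) with limma 3.58.1 in R 4.3.3 (lmFit, eBayes with trend, condition as the only term, two-sided, Benjamini-Hochberg adjustment over all tested genes, threshold 0.05), so a log2 change is on the log2(value + 1) scale. A peak in all 4 libraries was required. U2AF2 and SRSF1 were fitted alike over their 6 libraries each. Calls are described as rises and falls, errors are SE of the fit, and 2 libraries per condition limit precision, with counting error and PCR copies not separated. The fit was tested on simulated peaks with known changes. With the depths and the peak minimum of the deposited peaks it also called genes that had not been changed. Because depth differed between conditions, the depth-matched minimum is given beside calls. Its size factors were computed anew from the depth-matched reads, so its changes are relative to its own median gene; the same reads on the factors of the deposited peaks were added after the data were seen.

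Named genes were the 3 proteins studied, the 10 of highest signal, the 8 largest rises and 8 largest falls called with both minimums at a mean of at least 50 normalised reads, up to 4 called members of each list, the 3 strongest genes of 1 condition, and up to 6 called genes of the exon table. Some genes that these rules name are not reported here. The members, the 15 lists and the rules were chosen with earlier results of these data known. Gene IDs matched the name table for 13294 of 14214 genes (93.5%); gene types came from GENCODE release 29. Of the tested genes 577 (10.1%) had a peak also listed under another gene. Between replicates, no more than 0.0097% of the peaks of the smaller library were alike in interval, strand and reads, and each library was counted as a sample. Python 3.11.15, numpy 2.4.6 and pandas 2.3.3 were used.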

Additional observations from a re-analysis of the deposited data

How the results depend on the processing

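The total of 1023 called genes stayed within 1.5 times under every alternative run except those given here. Requiring peaks in 50% of the libraries gave 4791 calls (4254 lower), any library 4519 (4058 lower), and the number of peaks in place of reads 384 (250 higher, 134 lower). Leaving out each library in turn gave 541 to 1438 calls, with 411 to 589 higher and 130 to 849 lower. With a library left out, the spread came from the complete condition alone, and the number of calls depends on it. Cyclic loess normalization gave 363 higher. Depth-matched reads on the scale of the deposited peaks gave 1326 higher and 132 lower, list members 144 and 2, and 6 falls on chromosome 21; both of these settings were added after the data were seen. On chromosome 21, falls numbered 72 with peaks in 50% of the libraries, 66 with any, 6 by number of peaks and 15 in sites shared by all 4 libraries, and 15 to 31 with a library left out. On chromosome 2, rises numbered 33 by number of peaks, 65 in shared sites, and 73 to 105 with a library left out. Genes with peaks in control only numbered 576 at the depth-matched minimum, and with overexpression only 1592. Members of the lists called higher were 11 by number of peaks, and those called lower were 6 by number of peaks and 39 in shared sites. The replicate block gave 1088 calls. Deviations of libraries with the same number correlated at 0.015 across genes, so no pairing by number was seen. This value cannot exclude that such libraries shared a culture or a batch.

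Signs turned under quantile normalization for HNRNPA1 (-0.090), ERBB4 (-0.72), MALAT1 (-0.37), EFNA5 (-0.72), NFIA (-0.32), ERC1 (-0.029) and ROBO1 (-0.11). With cyclic loess they turned for HNRNPA1 (-0.096), ERBB4 (-0.077), NFIA (-0.18) and ROBO1 (-0.20). At the depth-matched minimum they turned for HNRNPA1 (-0.56), SRSF1 (-0.38), HNRNPH1 (-0.12), PNISR (-0.011) and PALLD (0.51), and on the scale of the deposited peaks for EIF3E (0.073), GPC6 (0.86) and PALLD (1.41). In shared sites, on their own scale, they turned for HNRNPA1 (-0.49), ERC1 (-0.029), ROBO1 (-0.22), JPX (-0.83), FTX (0.055) and CENPF (-0.019). By number of peaks they turned for SRSF1 (-0.059) and U2AF2 (-0.057). The cause of these changes was not tested. Of the 545 rises 238 and of the 478 falls 240 were called again at the depth-matched minimum, where 289 and 328 of them could be tested and 6 of the falls were called as rises (21 on the scale of the deposited peaks). With cyclic loess 309 and 285 were called again. A site with under 6 reads in an overexpression library shows no peak there, and its reads are not counted for the gene. The part of depth in the falls was not tested.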
